A study of Homo sapiens with 8 samples.

Results

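The introns described here are 2445 of the 142224 listed for SUM159 cells. They are 60 to 99 bases long, and each had a total of at least 20 reads in every one of 8 libraries. The total is the sum of reads inside the intron and, as inferred from the values, of reads spliced across it, and the intronic share is the percentage of the total that lay inside. The same depth rule kept 30262 introns of any length, and 7365 listed introns were of 60 to 99 bases before it was applied. The members lay in 1199 of the 15902 listed genes. Their median length was 86 bases and the shortest held 66. GENCODE 29 placed 2403 of them in a transcript and 2379 between 2 coding exons. As free introns were counted 2049 that overlapped no exon of another gene or of another transcript of their gene. Transcripts of the gene typed as retained intron were left out of that count, so a free intron can lie inside an exon of one.

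SUM159 is an established human triple-negative breast cancer line with mesenchymal features. The cells had been treated for 12 h with H3B-8800, an inhibitor of the spliceosome, or with its solvent DMSO, in biological duplicate. Polyadenylated RNA was sequenced after immunoprecipitation with J2, an antibody to double-stranded RNA, or without it (input). The 4 groups, J2 RNA with H3B-8800, input with H3B-8800, J2 RNA with DMSO and input with DMSO, thus held 2 libraries each, all of the same cell line. No immunoprecipitation with a control antibody was among the libraries, and the part of double-stranded RNA in a difference between J2 RNA and input was not tested.

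The depth behind the deposited RPKM ran between 47000000 and 57000000 reads per library. The members together held between 903893 and 1301735 reads per library, and a member's median total lay between 92 and 211. Reads spliced at the 9 listed introns of VIM, the gene of the mesenchymal filament vimentin, came to at least 459 RPM (reads scaled to the deposited depth) in each library. Those of ESR1, the estrogen receptor gene, were at 0, and those of the epithelial cadherin gene CDH1 reached at most 0.0755 RPM.

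Introns are removed from pre-mRNA by the spliceosome. Its U2 particle settles on the branch site near the 3′ end of the intron with the help of the SF3b complex, the target of H3B-8800. Very short introns are typically GC-rich and sit in compact genes. Their 5′ splice site, branch site and 3′ splice site lie close together, and the spliceosome is thought to recognise the 2 sites across the intron (intron definition) rather than across the neighbouring exon. An intron that stays in a transcript is called retained.

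Sequences could be read for 772 members, from GENCODE 29 transcripts whose exon covers the intron. The first set printed here holds introns with large rises in percentage points, so that their splice sites can be set beside their values. The second holds the member called lower in input and 4 members chosen for many reads and a low share, not for a weak response. Of these 4, GAPDH intron 6, RPS2 intron 2 and RPL36 intron 3 were themselves called higher in input. The last set was chosen for its ends. Coordinates are on GRCh38. Each is printed from its 5′ to its 3′ end. Capitals mark the first 6 bases, the last 2 bases and, where present, the motif nearest the 3′ end among 4 loose forms of the branch site: CTNAC, the form with T in first place (TTNAC), and both of these with T in place of the last C. The first set is 4 introns whose share was among those that rose most with the drug: AMPD2 intron 11 (chr1:109628278-109628363, + strand), SLC6A9 intron 11 (chr1:44000868-44000955, − strand), ANKRD13D intron 12 (chr11:67301399-67301487, + strand) and IFRD2 intron 2 (chr3:50290473-50290559, − strand).
AMPD2 intron 11: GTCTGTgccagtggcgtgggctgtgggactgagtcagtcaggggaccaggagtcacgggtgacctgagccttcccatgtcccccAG
SLC6A9 intron 11: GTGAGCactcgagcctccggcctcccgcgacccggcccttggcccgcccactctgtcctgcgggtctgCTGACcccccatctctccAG
ANKRD13D intron 12: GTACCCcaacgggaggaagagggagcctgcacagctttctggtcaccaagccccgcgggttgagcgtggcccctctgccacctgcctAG
IFRD2 intron 2: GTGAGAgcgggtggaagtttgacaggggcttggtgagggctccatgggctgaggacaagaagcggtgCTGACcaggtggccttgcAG

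The second set is the single member called lower in input by the edgeR test, TSPAN4 intron 6 (chr11:865615-865693, + strand), and 4 members with very many reads and shares that stayed under 1% in every library: GAPDH introns 5 (chr12:6537011-6537100, + strand) and 6 (chr12:6537217-6537308, + strand), RPS2 intron 2 (chr16:1964366-1964448, − strand) and RPL36 intron 3 (chr19:5691454-5691531, + strand).
TSPAN4 intron 6: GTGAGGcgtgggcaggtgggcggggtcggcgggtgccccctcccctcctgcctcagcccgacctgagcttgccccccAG
GAPDH intron 5: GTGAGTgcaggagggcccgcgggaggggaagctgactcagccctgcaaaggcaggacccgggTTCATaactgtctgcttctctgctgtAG
GAPDH intron 6: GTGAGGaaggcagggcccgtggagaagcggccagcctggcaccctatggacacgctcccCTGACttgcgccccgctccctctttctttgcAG
RPS2 intron 2: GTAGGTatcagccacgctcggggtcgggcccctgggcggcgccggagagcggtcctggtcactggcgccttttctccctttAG
RPL36 intron 3: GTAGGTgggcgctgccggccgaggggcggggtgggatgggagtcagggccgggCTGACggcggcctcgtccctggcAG

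The third set shows the unusual ends. Of the 772 sequences 765 began with GT and ended with AG, 5 were GC-AG, 1 was AT-AC and 1 was AT-AT as listed. ARL16 intron 1 (chr17:81683595-81683692, − strand) carried the AT-AC ends and begins with ATATCC, the start known from introns of the minor (U12-type) spliceosome. NOP2, a nucleolar methyltransferase gene, held the AT-AT intron (chr12:6563513-6563611, − strand). In input the ARL16 intron stood at 5.51% and 6.99% with H3B-8800, against 1.21% and 2.60% with DMSO (adjusted p 0.143). The NOP2 intron had 1 of 116 and 5 of 139 reads inside with H3B-8800, against 2 and 0 intronic reads with DMSO (adjusted p 0.397). SETD1B intron 9 (chr12:121817519-121817596, + strand) and ZNF275 intron 4 (chrX:153347656-153347753, + strand) were 2 of the GC-AG introns, and both lie inside an exon of another transcript of their gene.
ARL16 intron 1: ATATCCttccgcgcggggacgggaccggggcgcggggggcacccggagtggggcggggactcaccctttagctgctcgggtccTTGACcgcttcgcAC
NOP2 intron: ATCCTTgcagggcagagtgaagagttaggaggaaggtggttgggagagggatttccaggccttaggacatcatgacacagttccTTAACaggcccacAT
SETD1B intron 9: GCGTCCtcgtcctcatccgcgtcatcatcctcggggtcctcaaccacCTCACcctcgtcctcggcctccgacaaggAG
ZNF275 intron 4: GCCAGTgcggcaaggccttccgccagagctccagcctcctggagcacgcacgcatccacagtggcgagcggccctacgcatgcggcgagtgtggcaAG

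With H3B-8800 the very short introns were kept in RNA several times more often than with DMSO. Summed over the 2445 members, the intronic share of input was 6.62% and 6.45% with H3B-8800, against 0.977% and 0.959% with DMSO. In J2 RNA it was 9.79% and 9.61% with H3B-8800, against 0.815% and 0.872% with DMSO. The drug libraries lay above the DMSO libraries in both kinds of RNA, without overlap. The difference of means was 5.57 percentage points in input and 8.86 in J2 RNA, which is 6.75 and 11.5 times the DMSO level. With 2 libraries against 2, the exact two-sided permutation test gave p = 0.333, the smallest value it can give.

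The response was spread very unevenly over the members. The median member rose by 1.56 points in input and 1.85 points in J2 RNA (drug minus DMSO, means of 2 libraries), while the mean rise was 8.87 and 9.84 points. In input, 849 members rose by at least 5 points, 374 by at least 20 and 105 by at least 50. These are 34.7, 15.3 and 4.29% of the members, against 33.0, 14.8 and 4.23% of all introns of sufficient depth, so the shares are near the background. In J2 RNA the counts were 891, 420 and 130, which are 36.4, 17.2 and 5.32% of the members, against 31.5, 14.3 and 4.65% of all. In the input with H3B-8800, 623 members still had no intronic read in either library, against 1220 in the input with DMSO.

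**Figure D1:**
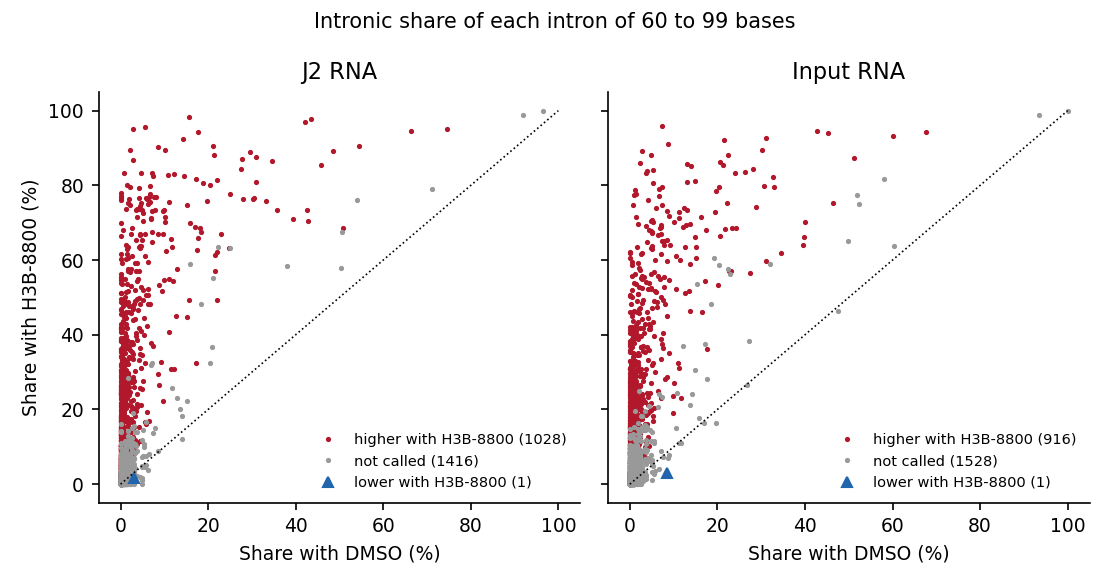
Intronic share (%) of each of the 2445 introns with H3B-8800 (vertical axis) against DMSO (horizontal axis), means of 2 libraries, for J2 RNA (left) and input (right); red points were higher, blue triangles lower and grey points not called at an adjusted p of at most 0.05, and the dotted line marks equal shares. The 1028 red points in J2 RNA and 916 in input spread from the foot of the left edge up to its top, and 1 triangle stands in each panel.

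The share was tested per intron with edgeR's quasi-likelihood test, intronic against spliced reads, adjusted (Benjamini-Hochberg) over all 30262 introns of sufficient depth. In input 916 members (37.5%) were higher with H3B-8800, where 29.6% of all introns tested were, and 1 was lower, where 0.681% were. In J2 RNA 1028 members (42.0%) were higher, where 30.8% of all were, and 1 was lower, where 0.839% were. Of the introns of 100 to under 200 bases, 33.6% were called higher in input and 37.3% in J2 RNA. For members of 90 to 99 bases these values were 33.7% and 36.4%. Of the members called higher in either RNA, 825 were called in both, which is 90.1% of those of input and 80.3% of those of J2 RNA. There remained 1326 members that were higher in neither. The median total in the first DMSO input library was 178 reads for members and 175 for introns of 100 to under 200 bases. With members split into 4 classes by their reads in that library, 24.3% were called higher in input in the class with fewest reads and 51.1% in the class with most. The part of depth in the gap to longer introns was not tested.

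Shorter members had higher shares. In input the pooled share of the 27 introns of 60 to 69 bases was 15.9 ± 1.52% with H3B-8800, against 2.81 ± 0.0826% with DMSO (SD, n = 2 each). The 467 introns of 70 to 79 bases stood at 8.71 ± 0.102% with H3B-8800, against 1.65 ± 0.0904% with DMSO. At 80 to 89 bases (1060 introns) the values were 6.50 ± 0.227% with H3B-8800 and 0.834 ± 0.0139% with DMSO, and at 90 to 99 bases (891 introns) 5.37 ± 0.0821% with H3B-8800 and 0.701 ± 0.000367% with DMSO. The input shares thus fell with each 10 bases of length, with drug and with DMSO. J2 RNA with H3B-8800 gave 15.03, 13.8, 9.78 and 7.15% over the same classes, against 1.90, 1.48, 0.743 and 0.614% with DMSO.

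The shares are not corrected for length, and a longer intron offers more positions for reads. Introns of 100 to under 200 bases stood at 5.61 ± 0.0976% with H3B-8800 and 1.06 ± 0.00266% with DMSO in input. Members of 95 to 99 bases (390) rose by 9.14 points on average in input and the 306 introns of the next 5 lengths, from 100 bases, by 8.21 points. The 244 members with a lowest total of 20 to 25 reads rose by 9.65 points on average, and 19.3% of them were called higher. Across members, the Spearman correlation of length with the drug difference in input was -0.12 (2445 introns, which share libraries and, in part, genes).

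**Figure D2:**
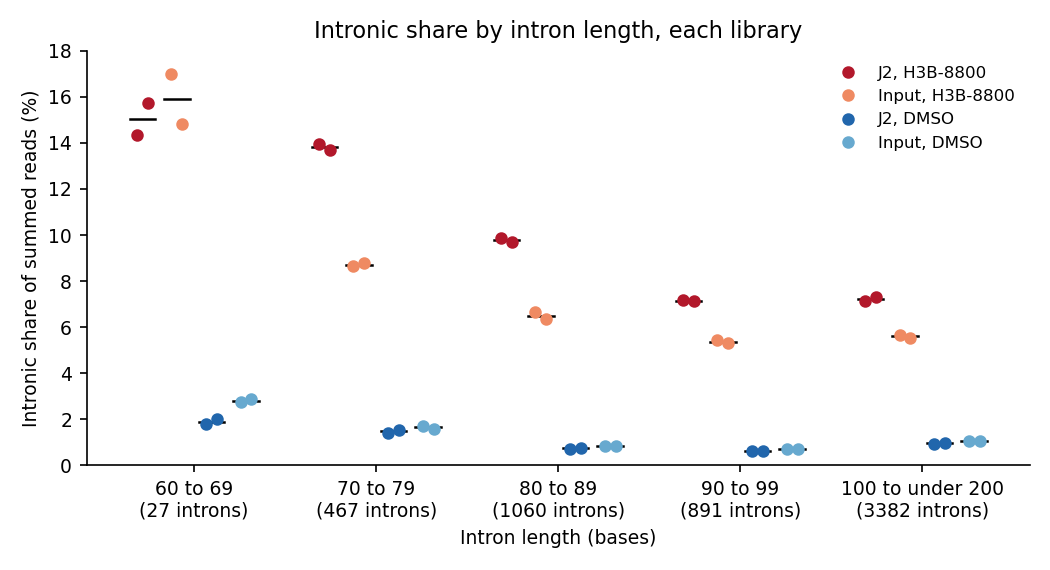
Pooled intronic share (%) of each library by class of intron length in bases; each point is 1 library, and the black line is the mean of the 2 libraries of a group. The H3B-8800 points of input fall from between 14.8 and 17.0% at 60 to 69 bases to below 6% at 90 to 99 bases, and the DMSO points lie below 3% in all 5 classes.

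The largest rises of single introns took the share from a few percent to most of the reads. AMPD2 intron 11, in the gene of an AMP deaminase, had shares of 98.1% and 93.6% in input with H3B-8800, against 3.92% and 10.6% with DMSO (log2 change of the intronic to spliced ratio 8.16 ± 0.92 SE, adjusted p 2.57e-17). In J2 RNA it stood at 95.7% and 95.6% with H3B-8800, against 4.44% and 6.56% with DMSO. Nearly all AMPD2 reads at this place were unspliced in the 4 drug libraries.

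SLC6A9 encodes a glycine transporter. Its intron 11 stood at 93.7% and 84.6% in input with H3B-8800, against 2.60% and 3.08% with DMSO (adjusted p 1.31e-11). In J2 RNA SLC6A9 reached 91.7% and 98.6% with H3B-8800, against 1.09% and 4.59% with DMSO, the largest rise of a member there (92.3 points). ANKRD13D intron 12 (a ubiquitin-binding ankyrin repeat protein) stood at 90.1% and 92.2% in input with H3B-8800, against 8.43% and 9.17% with DMSO (adjusted p 1.25e-13). Both introns overlap an exon of another transcript of their own gene.

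GIGYF1 intron 23 (chr7:100681772-100681863, − strand) is the last of its gene, which encodes a translational repressor. Its input shares were 91.7% and 84.8% with H3B-8800, against 0 of 36 reads and 9.52% with DMSO (adjusted p 9.05e-07). A count of 0 of 36 allows a share of up to 8.33%, from 3 counts and for counting error only. PCNXL3 intron 31 (chr11:65635449-65635528, + strand) stood at 80.5% and 87.0% with H3B-8800, against 3.85% in both DMSO libraries (adjusted p 5.15e-13).

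CACTIN, which encodes a spliceosome-associated protein, had 34 of 44 and 40 of 50 reads inside intron 8 (chr19:3613366-3613463, − strand) in input with H3B-8800, against 0 of 46 and 1 of 45 with DMSO (adjusted p 2.49e-07). The count of 0 allows up to 6.52%. An exon of the antisense gene CACTIN-AS1 overlaps it, and since the strand setting of the counts is not given in the sources used here, reads of the 2 genes cannot be told apart.

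In IFRD2 and PPP1R37 every short intron that met the depth rule rose. IFRD2 encodes a ribosome-binding regulator of translation, and its 7 members were higher in both RNAs. In input with H3B-8800 their mean shares ran between 17.4% (intron 7) and 85.9% (intron 9), against 0.577% (intron 4) to 7.404% (intron 3) with DMSO. IFRD2 intron 2 had 83.6% and 83.2% with H3B-8800, against 2.32% and 4.85% with DMSO, from at least 518 reads in each library (log2 change 7.07 ± 0.38 SE, adjusted p 7.72e-75). Intron 9 (chr3:50288712-50288799, − strand) had 86.1% and 85.8%, against 1.66% and 2.93% with DMSO (adjusted p 8.61e-72). IFRD2 intron 6 responded far less, with 21.6 ± 1.82% in input with H3B-8800 and 2.58 ± 0.708% with DMSO (SD, n = 2 each).

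PPP1R37 encodes a regulatory subunit of protein phosphatase 1. Its 4 members stood between 55.2% and 85.2% in input with H3B-8800, against 0.847% to 14.0% with DMSO. PPP1R37 intron 6 (chr19:45142212-45142302, + strand) had 85.6% and 82.5% with H3B-8800, against 6.15% and 4.63% with DMSO (adjusted p 3.66e-18). Intron 9 (chr19:45144996-45145093, + strand) had 80.3% and 74.4% with H3B-8800, against no intronic read and 1.69% with DMSO. In J2 RNA with DMSO, intron 9 had no intronic read in either library, which allows up to 2.29% and 2.88%.

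**Figure D3:**
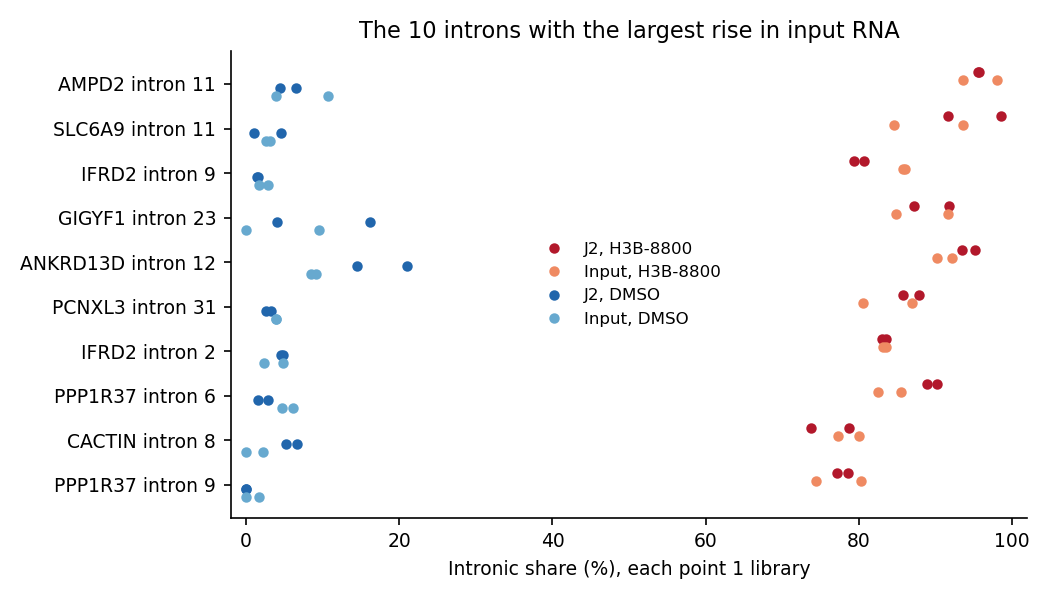
Intronic share (%) of the 10 introns with the largest called rise in input; each point is 1 library, with J2 and input libraries of each treatment on neighbouring lines. All H3B-8800 points lie between 73.7% (CACTIN in J2 RNA) and 98.6% (SLC6A9 in J2 RNA), and all DMSO points lie at or below 21.0% (ANKRD13D in J2 RNA).

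Among the 8 largest rises in J2 RNA were 3 genes not yet named. ATP2A2 encodes the calcium pump SERCA2, and its last intron, intron 19 (chr12:110346119-110346200, + strand), had 83.6% and 83.1% with H3B-8800, against 0.442% and 1.06% with DMSO (adjusted p 4.22e-38). In input it stood at 69.8% and 73.5% with H3B-8800, against 2.94% and 0 of 129 reads with DMSO. WDR55 intron 2 (chr5:140668335-140668414, + strand) had 96.4% and 100% in J2 RNA with H3B-8800, against 20 of 100 reads and 11.4% with DMSO (adjusted p 1.3e-08). PPP1R16A intron 4 (chr8:144500200-144500266, + strand) is 67 bases long. Its J2 shares were 89.5% and 91.2% with H3B-8800, against 9.80% and 7.33% with DMSO (adjusted p 2.97e-20), and an exon of AC084125.2 lies on the other strand.

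With edgeR 1 member was called lower in each RNA, and neither was called in both. With limma (pseudocounts 1 and 0.5) 22 and 13 were called lower in input and 40 and 29 in J2 RNA. TSPAN4, a tetraspanin gene, had 1.80% and 4.17% at intron 6 in input with H3B-8800, against 9.28% and 7.88% with DMSO (log2 change -1.58 ± 0.44 SE, adjusted p 0.00181). Without the first drug library of input the adjusted p was 0.142. In J2 RNA its shares overlapped, at 9.28% and 7.01% with H3B-8800 and 5.19% and 7.64% with DMSO. DRAP1 encodes a transcriptional corepressor. Its intron 2 (chr11:65919853-65919947, + strand) had 1.23% and 1.82% in J2 RNA with H3B-8800, against 3.16% and 2.85% with DMSO (adjusted p 0.0419). In input it had 1.62% and 1.98% with H3B-8800, against 2.39% and 2.61% with DMSO, without overlap but not called (adjusted p 0.376). The DRAP1 call was lost in the fits without J2 drug replicate 1 (adjusted p 0.228), J2 DMSO replicate 1 (0.145) or 2 (0.0676) and input drug replicate 1 (0.0512), and with DESeq2 (0.108).

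At some short introns most reads lay inside the intron also without drug. SETD1B, which encodes a histone methyltransferase, had 100% at intron 9 in input with H3B-8800 and with DMSO, and ZNF275 intron 4 had 98.5% and 99.02% with H3B-8800, against 98.6% and 88.2% with DMSO. In input SETD1B had no read spliced across this place in any of the 4 libraries. The SETD1B and ZNF275 introns lie inside an exon of another transcript of their gene. Reads of that exon cannot be told apart from reads of a kept intron, so these shares do not show retention. C8orf33 intron 1 (chr8:145052498-145052585, + strand) had 94.6% and 93.8% with H3B-8800, against 65.7% and 69.6% with DMSO (adjusted p 7.04e-11). ECI1, the gene of a mitochondrial enoyl-CoA isomerase, had 68.3% and 59.3% at intron 1, against 57.3% and 63.6% with DMSO, and the libraries overlapped. EPOR, the erythropoietin receptor gene, had 91.7% and 94.9% at intron 5 with H3B-8800, against 60.4% and 59.8% with DMSO (adjusted p 0.00125). Shares of at least 50% were held by 164 of the 2445 members in input with H3B-8800, against 9 with DMSO. Among all 30262 introns of sufficient depth the counts were 2805 and 785, so members held such shares less often than introns in general.

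At the other end were abundant short introns that stayed almost fully spliced. GAPDH, a glycolytic enzyme gene, holds 2 of them next to each other. Its intron 5 had 2 of 29022 and 8 of 30393 reads inside in input with H3B-8800, against 1 of 21618 and 1 of 23451 with DMSO, and the share passed no test there (adjusted p 0.187). GAPDH intron 6, 92 bases long, had 88 of 29774 and 79 of 31591 reads with H3B-8800, against 3 of 21441 and 2 of 21753 with DMSO. That rise passed the test (log2 change 4.49 ± 0.46 SE, adjusted p 9.52e-21), although the share reached only 0.273 ± 0.0322% with H3B-8800, against 0.0116 ± 0.00339% with DMSO.

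Introns of 4 ribosomal protein genes were in the same class, chosen for many reads and a share of at most 2% in every library. The choice fixes that their levels are low. RPS2 intron 2 had 6 of 16939 and 18 of 16312 reads inside in input with H3B-8800, against 0 of 18857 and 0 of 19414 with DMSO, where the 2 counts of 0 allow up to 0.0159% and 0.0155%. RPS28 intron 1 had 23 of 21270 and 19 of 23933 with H3B-8800, against 0 of 18079 and 2 of 19979 with DMSO. RPL36 intron 3 had 17 of 12003 and 10 of 13270 with H3B-8800, against 4 of 13524 and 5 of 14080 with DMSO. RPL8 intron 2 had 53 of 12469 and 45 of 13111 with H3B-8800, against 4 of 10836 and 8 of 11972 with DMSO. All 4 were called higher in input (adjusted p 1.68e-06, 1.06e-06, 0.0211 and 1.42e-09), so a called rise in this class can be a small fraction of a percent. Spliced reads of ribosomal protein genes may be shared with processed pseudogenes, and MIR6850 overlaps the RPL8 intron.

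A higher share can come from more intronic reads, from fewer spliced reads, or from both. Scaled by the depth behind the deposited RPKM, intronic reads were higher with H3B-8800 for 745 members in input, where 26.5% of all introns were, and for 883 in J2 RNA, where 30.1% were. Spliced reads were lower for 1668 members in input, where 48.1% of all were, and higher for 225, where 20.6% were. In J2 RNA they were lower for 1414, where 45.7% were, and higher for 374, where 23.7% were. The members' median log2 change of spliced reads was -0.80 in input and -0.57 in J2 RNA, against -0.37 and -0.30 over all introns tested. These counts rest on the scaling. TMM factors shifted the log2 changes of spliced reads by 0.40 in input and 0.30 in J2 RNA, which gave 494 higher and 1222 lower members in input and 607 and 1125 in J2 RNA. Median-of-ratios factors gave 478 and 1236 in input and 624 and 1104 in J2 RNA. Intronic reads shifted by -0.59 in input with TMM. Median-of-ratios factors gave 413 higher and 52 lower members for intronic reads in input, against 745 and 8 with the deposited depth. The share itself needs no scaling between libraries.

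With the deposited depth as scale, both components were called in most of the introns with a higher share. Of the 916 members with a higher share in input, 533 had more intronic and fewer spliced reads, 188 had more intronic reads alone and 188 had fewer spliced reads alone. Of the 1028 in J2 RNA the counts were 521, 326 and 167. This split rests on that scaling. TMM factors left 426 members called with more intronic reads in input, and median-of-ratios factors 413. The same split over all introns is not given here. Among the 105 members whose share rose by at least 50 points in input, the median total was 2.24 RPM with H3B-8800, against 2.34 with DMSO. Their median spliced reads were 0.557 RPM with H3B-8800, against 2.20 with DMSO. The choice of these members fixes that spliced reads fell relative to intronic ones, and the levels rest on the scaling by deposited depth. In J2 RNA the 130 members with such a rise had a median total of 3.39 RPM with H3B-8800, against 2.50 with DMSO.

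J2 RNA with H3B-8800 held a larger pooled intronic share than input with H3B-8800, by 3.17 points (9.79% and 9.61%, against 6.62% and 6.45%). With DMSO it was 0.124 points smaller (0.815% and 0.872%, against 0.977% and 0.959%). Neither pair of groups overlapped, and the exact permutation p was 0.333 for both, the smallest possible. The drug difference between the 2 RNAs came to 3.29 points and kept its sign without any 1 library (3.20 to 3.38). The excess with H3B-8800 was not limited to very short introns. It was 4.05 points for introns of 100 or more bases in the same genes (J2 to input ratio 1.38, against 1.48 for members). Introns of 100 to under 200 bases showed 1.60 points, and the next classes of length 2.86 and 2.99. The classes of longest introns (-2.80 and -13.0 points) and members of 60 to 69 bases (-0.869) went the other way, with overlapping libraries.

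Part of the J2 excess lay in a few abundant introns. The 10 members with most reads inside gave 24.2% of all members' intronic reads in J2 RNA with H3B-8800, and the first of them, an intron of the ribosomal protein gene RPL10A, gave 5.93%. Averaged over introns and not over reads, the share was 11.4 ± 0.0480% in J2 RNA with H3B-8800, against 10.6 ± 0.196% in input with H3B-8800 (SD, n = 2 each). The median of the members' own shares differed by 0.120 points between J2 RNA and input with H3B-8800, and by 0 with DMSO. Without the 10 introns with most intronic reads, a choice made after the values were seen, the pooled difference was 2.26 points.

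Intron by intron, few members differed between J2 RNA and input. With H3B-8800, 14 were higher in J2 RNA, where 0.942% of all introns were, and 1 was lower, where 1.47% were. The higher count was 8 or 6 without J2 drug replicate 1 or 2, 6 or 2 without input drug replicate 1 or 2, and 1 with DESeq2. With DMSO, 1 was higher, where 0.321% were, and 2 were lower, where 0.972% were. POLR2I encodes a subunit of RNA polymerase II, and its intron 1 (chr19:36114714-36114797, − strand) was higher in both comparisons. With H3B-8800 it had 86.7% and 84.4% in J2 RNA, against 56.2% and 56.8% in input (adjusted p 1.1e-08). With DMSO it had 46.1% and 45.3% in J2 RNA, against 26.1% and 28.6% in input (adjusted p 0.038). That second call was lost without any 1 of the J2 DMSO, input DMSO or input drug libraries (adjusted p 0.0779 to 0.292) and with DESeq2 (0.0707). An exon of AD001527.2 lies on the other strand.

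DDX56, an RNA helicase gene, had 65.2% and 68.9% at intron 1 in J2 RNA with H3B-8800, against 45.3% and 41.8% in input with H3B-8800 (adjusted p 0.0168), and was not called without any 1 drug library (0.0876 to 0.360). CDC20, the gene of a mitotic activator of the anaphase-promoting complex, had 17.8% and 21.6% at intron 5 in J2 RNA, against 7.97% and 0.962% in input (adjusted p 0.0232). Without input drug replicate 2 its log2 change was 1.504, against 2.61 with all libraries, and the adjusted p was 0.814. It was likewise not called without J2 drug replicate 1 (0.0842) or 2 (0.314).

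EIF5A intron 4, in the gene of a translation factor, had 1.05% and 1.24% in J2 RNA with H3B-8800, against 1.92% and 1.85% in input (adjusted p 0.041). It was not called without any 1 drug library (0.149 to 0.628), and its place overlaps an exon of GPS2 on the other strand. With DMSO, CDC37 intron 3, in the gene of an HSP90 cochaperone, had 3.49% and 2.53% in J2 RNA, against 15.2% and 16.2% in input (adjusted p 3.73e-05). H3F3B encodes histone H3.3. Its intron 3 had 2 of 16854 and 3 of 16141 reads inside in J2 RNA with DMSO, against 10 of 6920 and 9 of 7462 in input (adjusted p 0.00521). That call was lost without J2 DMSO replicate 1 (0.0959) or input DMSO replicate 1 (0.107).

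The drug effect itself differed between J2 RNA and input for 2 members, both larger in J2 RNA, where 0.284% of all introns tested were called, and for 0 members in the other direction, where 0.152% were. With edgeR 57 members had an unadjusted p of at most 0.05 in either direction, and DESeq2 called 0 members. FLII encodes an actin-remodelling protein of the gelsolin family. Its intron 25 (chr17:18245851-18245933, − strand) had 27.9% and 37.6% in J2 RNA with H3B-8800, against 0.855% and 0.165% with DMSO. In input it had 12.3% and 16.7% with H3B-8800, against 4.31% and 2.65% with DMSO. The log2 difference of the drug effects was 4.28 ± 1.01 SE (adjusted p 0.00879). It was not called without J2 drug replicate 2 (0.0843), J2 DMSO replicate 2 (0.193), input drug replicate 1 (0.0946) or input DMSO replicate 1 (0.212).

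RPS16, a ribosomal protein gene, had 8.35% and 7.67% at intron 3 (chr19:39433570-39433664, − strand) in J2 RNA with H3B-8800, against 0.333% and 0.186% with DMSO. In input it had 4.52% and 4.08% with H3B-8800, against 0.226% and 0.457% with DMSO (adjusted p of the difference 0.0279). It was not called without J2 drug replicate 1 (0.123) or 2 (0.0631), J2 DMSO replicate 2 (0.603), input drug replicate 1 (0.260) or 2 (0.517) or input DMSO replicate 2 (1). The log2 difference was 1.37 with all libraries, 0.99 without J2 DMSO replicate 2 and 0.78 without input DMSO replicate 2.

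Neighbouring short introns of the same gene differed widely. In 273 genes with at least 3 members, the median spread between the highest and the lowest rise in input was 14.9 points, and in 106 of them it was at least 20 points. FLNA, the gene of the actin crosslinker filamin A, held 21 members, of which 14 were higher in input. FLNA intron 4 (chrX:154367545-154367640, − strand) stood at 30.9% and 29.8% with H3B-8800, against 0.673% and 0.211% with DMSO (adjusted p 1.45e-28). Intron 8 of FLNA stood at 20.3 ± 0.484% with H3B-8800, against 0.0698 ± 0.0988% with DMSO (SD, n = 2 each). Intron 39 of FLNA stood at 17.2 ± 1.07% with H3B-8800, against 0.336 ± 0.227% with DMSO. FLNA intron 23 had no intronic read in any library, and introns 14, 16 and 36 stood at or below 0.248% with H3B-8800.

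SBF1 encodes a catalytically inactive myotubularin-family phosphatase. It also held 21 members, of which 10 were higher in input and 9 in J2 RNA. Its intron 27 stood at 46.2 ± 2.46% in input with H3B-8800, against 0.668 ± 0.0441% with DMSO (SD, n = 2 each). Intron 30, of 96 bases, and intron 20, of 77 bases, had no intronic read in any library. Of the 17 members in LAMB2 (a laminin chain) 5 were higher in input, of the 16 in TBL3 (a ribosome assembly factor) 5, of the 14 in PIEZO1 (a mechanosensitive channel) 7, and of the 13 in FASN (fatty acid synthase) 4. Over all introns tested 29.6% were, and LAMB2, TBL3 and FASN lay near that share. FLII held 9 members, and the 6 called higher in input had means between 3.43% (intron 18) and 17.4% (intron 24) with H3B-8800, against 0 to 3.48% with DMSO.

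**Figure D4:**
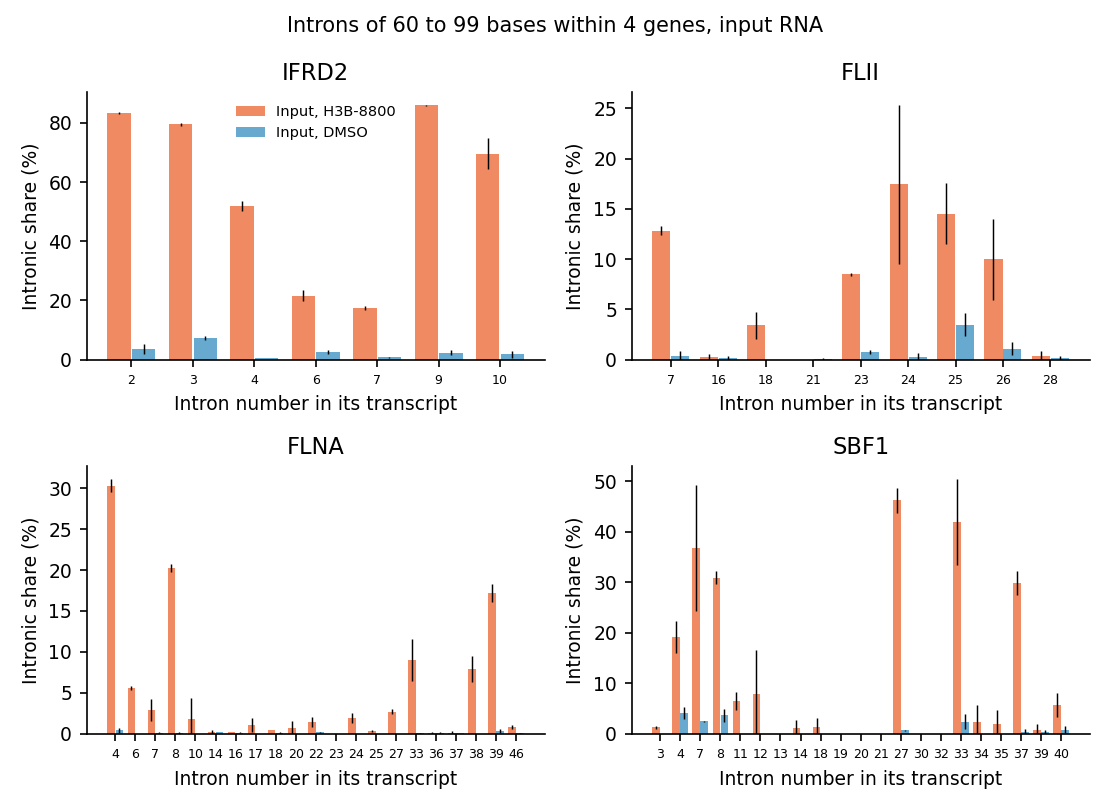
Mean intronic share (%) in input of each intron of 60 to 99 bases in 4 genes, by intron number in the transcript; orange bars are H3B-8800, blue bars DMSO, and lines show the SD of 2 libraries. In FLNA and SBF1, introns at 30.3% (FLNA intron 4) or 46.2% (SBF1 intron 27) stand beside introns without any intronic read, while every short intron of IFRD2 lies at or above 17.4% with H3B-8800.

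Longer introns of the same genes rose by more percentage points in most genes. In 1164 genes with both kinds, the mean rise of the short introns in input was lower than that of introns of 100 or more bases in 781 genes and higher in 374. In J2 RNA it was lower in 749 and higher in 404. The pooled share of the longer introns was 10.6 ± 0.0833% in input with H3B-8800, against 2.95 ± 0.0326% with DMSO (SD, n = 2 each). The ratio of drug to DMSO level in input was 6.75 for the members, with their lower DMSO level, and 3.596 for the longer introns. Longer introns offer more positions for intronic reads, and no test between the length classes was run.

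Several features of the members went with a larger rise in percentage points. The members' share with DMSO in input went with that rise too (Spearman correlation 0.48, 2445 introns). By GC content of the 50 exon bases on each side, the lowest of 4 classes of members had a mean share of 7.49 ± 0.0894% in input with H3B-8800, against 0.938 ± 0.00598% with DMSO. In the highest class it was 14.9 ± 0.139% with H3B-8800, against 2.998 ± 0.0938% with DMSO (SD, n = 2 each). The mean rise was 6.56, 8.56, 9.39 and 11.9 points over the 4 classes in input and 8.01, 9.54, 10.1 and 12.6 points in J2 RNA. Among internal introns alone it was still 10.8 points in the highest and 5.86 in the lowest class in input. As a multiple of the DMSO level, the rise in input was smaller in the highest class than in the lowest. GC of the intron itself, known for the 772 with a sequence, gave 7.85, 13.0, 16.03 and 20.7 points. Those 772 are a selected set: 52.3% of them were called higher in input, against 30.6% of the 1673 without a sequence. They were read from transcripts whose exon covers the intron.

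Place in the transcript also went with the rise in points. The 83 first introns rose by 17.0 points on average in input and the 271 last introns by 13.1, against 7.99 for the 2042 internal ones. First introns had 24.3 ± 0.479% with H3B-8800, against 7.33 ± 0.185% with DMSO. Internal introns had 9.30 ± 0.187% with H3B-8800, against 1.31 ± 0.0127% with DMSO, which is a larger multiple of the DMSO level. In 734 members an exon of a GENCODE retained-intron transcript of the gene overlapped the intron, in full or in part. They rose by 12.7 points on average, against 7.25 for the other 1711. Members with an exon of another transcript of the gene (258) rose by 15.002 points and those with an exon of another gene (138) by 14.1, against 7.75 for the 2049 free introns. These overlap classes leave out the retained-intron transcripts of the gene. Length divided by 3 left 3 classes whose mean rise lay between 8.27 and 9.34 points. These features are tied to each other and to read depth, and their separate parts were not tested.

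**Figure D5:**
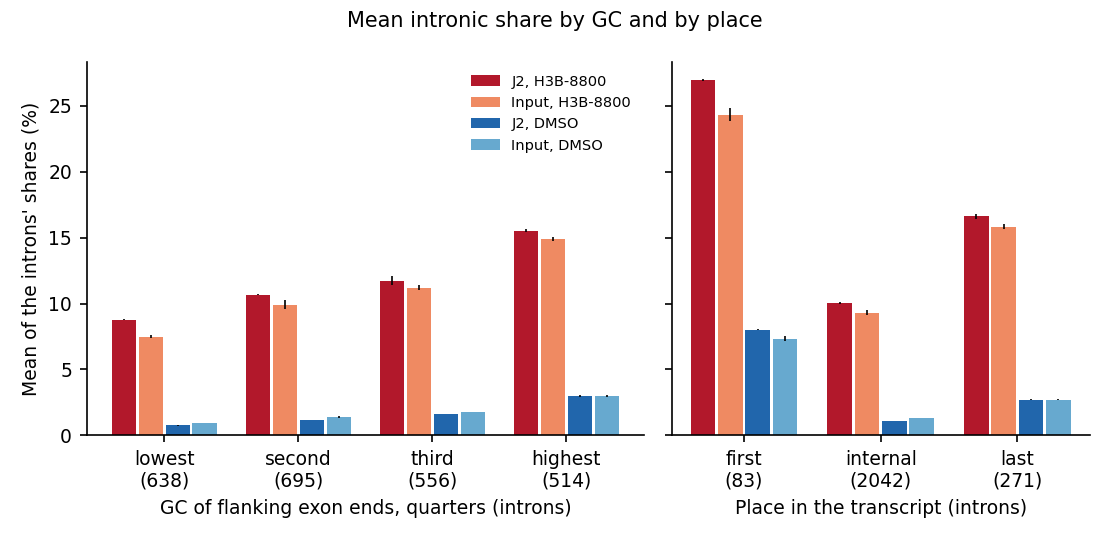
Mean over introns of the intronic share (%), by 4 classes of the GC content of the flanking exon ends (left) and by place in the transcript (right); bars are group means of 2 libraries with their SD, and the number of introns stands under each class. In the H3B-8800 groups the bars rise from 8.79% (J2 RNA) and 7.49% (input) in the lowest GC class to 15.5% (J2 RNA) and 14.9% (input) in the highest, and first introns stand above internal ones in all 4 groups.

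Sequence motifs were searched on the transcribed strand in the 50 bases before the last 2. At least 1 of the 4 branch site forms given above was present in 63.5% of the 772 members with a sequence and in 59.5% of 1373 introns of 100 to 300 bases. It was present in 58.2% of the 404 members higher in input and in 73.0% of the 281 higher in neither RNA. The share with a motif fell with GC content of the intron, at 75.6, 65.3, 60.3 and 52.6% over its 4 classes, so the 2 cannot be told apart here. Among the introns printed above, AMPD2, ANKRD13D, TSPAN4, RPS2 and ZNF275 have none of these letters in the window. The pyrimidine content of the last 20 bases had a median of 75% in each of these sets.

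By the work of the host gene, each of the 14 lists compiled held some members called higher and none called lower. Only 1 of all 2445 members was called lower in each RNA, so the absence of falls says nothing about the lists. The lists were chosen with earlier results of these data known. Their counts stand beside 29.6% of all introns and 37.5% of all members called higher in input. The median rise over all introns was 1.37 points. In input the part called higher ran from 18.2% (chaperones and protein folding) to 63.2% (cytosolic ribosomal proteins). Lists lay below 29.6% as well as above it. Of 19 members in cytosolic ribosomal protein genes 12 were higher in input and 13 in J2 RNA, with a median rise of only 0.277 points in input. RPL10A intron 2 (chr6:35468874-35468946, + strand) stood out with 16.8% and 16.9% in input with H3B-8800, against 0.459% and 0.329% with DMSO (adjusted p 4.21e-160). RPL10A in J2 RNA had 19.1% and 19.8% with H3B-8800, against 0.484% and 0.397% with DMSO. Of 78 members in cytoskeleton and adhesion genes 34 were higher in input and 31 in J2 RNA. ACTG1 intron 5, in a cytoplasmic actin gene, had 11.2% in both input libraries with H3B-8800, against 0.258% and 0.0891% with DMSO (adjusted p 2.26e-70).

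Of 30 members in transcription machinery genes 9 were higher in input. GTF2F1 intron 10, in a subunit gene of the initiation factor TFIIF, stood at 55.0% and 59.5% with H3B-8800, against 3.68% and 1.16% with DMSO (adjusted p 4.5e-24). Of 30 in spliceosome genes 8 were higher. LSM7 intron 1 (chr19:2328478-2328560, − strand) had 68.7% and 64.6%, against 6.55% and 6.21% with DMSO (adjusted p 1.18e-29). PRPF40B intron 11 had 75.3% and 74.3% with H3B-8800, against 0 of 75 and 1 of 81 reads inside with DMSO (adjusted p 9.37e-12).

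Of 29 members in genes of SR proteins, hnRNPs and their kinases 8 were higher in input. PTBP1 intron 4, in the gene of the polypyrimidine tract binding protein, had 53.6% and 57.8% with H3B-8800, against 2.68% and 2.73% with DMSO (adjusted p 1.09e-38). HNRNPC intron 8 had 29.3% and 27.9%, against 3.59% and 2.61% with DMSO (adjusted p 1.02e-27). Of 22 members in genes of mRNA decay, export and 3′ end processing 8 were higher. ALYREF intron 5, in the gene of an mRNA export adaptor, had 31.0% and 32.8%, against 0.318% and 0.338% with DMSO (adjusted p 6e-55). THOC6, in the gene of another export factor, had 15.9% and 35.6% at intron 7, against 0.608% and 0 of 296 reads with DMSO (adjusted p 1.02e-08).

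Translation factor and tRNA synthetase genes held 48 members, of which 12 were higher in input and 16 in J2 RNA. EIF3I intron 10, in a subunit gene of an initiation factor, had 46.2% and 43.9% in input with H3B-8800, against 0.513% and 0.685% with DMSO (adjusted p 1.33e-31). Of 36 members in glycolysis and central metabolism genes 12 were higher. IDH3G intron 11, in a subunit gene of mitochondrial isocitrate dehydrogenase, had 61.0% and 50.4%, against 0.289% and 0.570% with DMSO (adjusted p 1.33e-28). Of 24 in proteasome and ubiquitin enzyme genes 6 were higher, among them UBE2M intron 5 with 20.1% and 17.5%, against 1.02% and 0.466% with DMSO (adjusted p 6.93e-25). PSMD13 intron 8 had 10.1% and 10.6%, against 0.267% and 0 of 414 reads with DMSO (adjusted p 5.55e-10).

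Of 21 members in cell cycle and replication genes 4 were higher. CDC20 intron 2 had 26.0% and 26.9% with H3B-8800, against 7 of 584 reads and 0.483% with DMSO (adjusted p 9.29e-20), and MAD2L2 intron 2 had 13.9% and 10.4%, against 1.07% and 0.758% (adjusted p 8.42e-12). Of 21 in lysosome and membrane traffic genes 4 were higher, with LAMP1 intron 7 at 11.6% and 8.81%, against 1.88% and 1.42% with DMSO (adjusted p 5.65e-06). Of 11 in chaperone genes 2 were higher, CALR intron 8 and FKBP8 intron 3, which reached 1.60% and 1.35% and 3.49% and 2.64% with H3B-8800, against at most 1 intronic read in any DMSO library of input.

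Of 11 members in mitochondrial respiration genes 4 were higher in input, with NDUFS8 intron 6 at 6.97% and 6.03% with H3B-8800, against 0.803% and 0.775% with DMSO (adjusted p 2.1e-10). Genes of the double-stranded RNA and interferon response held 10 members, of which 5 were higher in each RNA. RELA, the gene of an NF-kB subunit, had 14.3% and 13.4% at intron 2 in input with H3B-8800, against 0.521% and 1.54% with DMSO (adjusted p 1.22e-05).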

How the data were processed

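Per the labels' protocols, RNA was polyA-selected and sequenced from stranded libraries. Alignment with HISAT2 (version 2.0.4) is named in the submitters' processing notes, which list hg38 and mm10 as builds. The counting program, its strand setting and the choice of introns are not given in the sources used here. The deposited files, which have no header, list for each intron 2 counts and an RPKM. The deposited counts were not normalized. The first was taken as reads inside the intron and the excess of the second as reads spliced across it, which was inferred from the values. The RPKM deposited by the authors equals the first count scaled by intron length and a whole-number depth, and only that depth was used from it.

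Intronic shares were tested with edgeR 4.0.16 (quasi-likelihood, paired intronic and spliced columns, 1 coefficient per library, all 8 libraries in 1 fit), over 30262 introns with a total of at least 20 in every library. Intronic and spliced reads were tested with the deposited depth as library size. The adjusted p (Benjamini-Hochberg, threshold 0.05) runs over all of these introns. SE is that of the log2 change. The fits were tested on simulated data, for H3B-8800 against DMSO in input over 30262 introns. The share test called 21 of 100 introns whose intronic to spliced ratio was changed 4-fold and 83 of 100 changed 16-fold, with 0 false calls, so many smaller changes would not be called. The test of reads had 5 false calls. The simulation gave every intron the same fixed spread, so its false calls need not hold for these data. Alternatives were DESeq2 1.42.0, limma 3.58.1, other scalings and filters, a replicate block and leaving out each library. Replicate numbers did not pair the libraries: deviations of same-numbered libraries correlated between -0.0487 and 0.0513. Replicates of a group differed by more than counting noise. For intronic reads over introns of any length, chi-square per degree of freedom was 23.0 in input with H3B-8800. It was between 2.27 and 5.51 in the other groups. A count of 0 allows 3 counts of the total. Reads have no molecular identifiers, so such limits cover counting error only.

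The members and gene lists were chosen with earlier results of these data known. Introns named in the text are those past the threshold without overlap between libraries and with the largest difference (up to 10 each way in input, 8 in J2 RNA, 6 for the difference of drug effects and 4 for each comparison of J2 RNA with input), the 5 with the highest share in input with DMSO, the 6 with most reads and a share of at most 2% and up to 2 per gene list. NOP2 and ARL16 were chosen for their ends, and members of genes with many short introns after their values were seen. Some introns that meet this rule are not reported here. Annotation and sequences are from GENCODE 29 on GRCh38.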

Additional observations from a re-analysis of the deposited data

Results flagged for a closer look

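For 2 introns the effect of H3B-8800 on the intronic to spliced ratio differed between J2 RNA and input by a test of the difference itself (edgeR, adjusted over all 30262 introns). FLII intron 25 had a log2 difference of the drug effects, J2 RNA minus input, of 4.28 (adjusted p 0.00879), with 27.9% and 37.6% in J2 RNA and 12.3% and 16.7% in input under H3B-8800. RPS16 intron 3 had a log2 difference of 1.37 (adjusted p 0.0279), with 8.35% and 7.67% in J2 RNA and 4.52% and 4.08% in input under H3B-8800. Neither was called with DESeq2 (adjusted p 0.282 and 1) or limma (0.106 and 0.308 with a pseudocount of 1). Groups of 2 libraries are too small to look for single libraries far from the rest.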

How the results depend on the processing

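The rise of the intronic share with H3B-8800 kept its direction under every alternative run. Members called higher numbered 713 to 931 in input and 836 to 1038 in J2 RNA without any 1 library, and 1433 in input with limma at a pseudocount of 1. Members called lower in input were 22 and 13 with limma (pseudocounts 1 and 0.5) and 0 to 1 without any 1 library. In J2 RNA they were 40 and 29 with limma, 0 with DESeq2, 0 among free introns and 0 to 1 without any 1 library.

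Counts between J2 RNA and input rest on few introns. With DMSO the higher count was 0 with DESeq2, 2 and 5 with limma, 0 among free introns, 0 with the replicate block and 0 to 1 without any 1 library. The lower count was 1 with DESeq2, 11 and 17 with limma, 0 among free introns and 1 to 2 without any 1 library. With H3B-8800 the higher count was 1 with DESeq2, 2 among free introns and 2 to 14 without any 1 library. The lower count was 0 with DESeq2, 10 and 9 with limma, 0 among free introns and 0 to 1 without any 1 library. For the difference of drug effects the higher count was 0 with DESeq2, 0 and 0 with limma, 0 among free introns and 0 to 2 without any 1 library. The lower count was 1 with a total of at least 50 in every library, 1 with the replicate block and 0 to 1 without any 1 library. The free set, which can still overlap exons of retained-intron transcripts of the gene, holds fewer introns by construction. The cause of the other changes was not tested.

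Counts of intronic reads called higher in input were 426 with TMM, 413 with median-of-ratios factors, 330 with DESeq2 and 594 to 771 without any 1 library. In J2 RNA they were 528, 538, 425 and 748 to 918. For spliced reads called higher the same settings gave 494, 478, 404 and 177 to 248 in input, and in J2 RNA 607 with TMM, 624 with median-of-ratios factors and 302 to 373 without any 1 library. Spliced reads called lower in input numbered 1072 with DESeq2 and 1515 to 1699 without any 1 library, and in J2 RNA 1304 to 1417.

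The pooled difference in input was 1.82 points by the median of the members' own shares, 5.39 with a total of at least 50, 4.43 among free introns, 4.83 without the 10 members with most intronic reads (added after seeing the data) and 5.49 to 5.65 without any 1 library. In J2 RNA these values were 1.94, 8.72, 7.33, 7.24 and 8.77 to 8.95. J2 RNA minus input with H3B-8800 gave 0.120 by the median, 2.79 among free introns, 2.26 without those 10 and 3.07 to 3.26 without any 1 library. With DMSO it was 0 by the median and -0.153 to -0.0959 without any 1 library. The difference of drug effects was 0.120, 2.90, 2.41 and 3.20 to 3.38.

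The replicate block gave 900 members higher in input, 1013 in J2 RNA, 11 for J2 RNA over input with H3B-8800 and 2 for the difference of drug effects. The numbers share no source in the labels. Of 837 recomputed values of 58 tests of introns named by rule, 775 kept their direction and side of the threshold, 62 lost the call and 0 reversed. Nothing in the labels shows the duplicates to be separate cultures beyond the word biological, so p-values measure the spread between these libraries. With totals near 20 reads a few intronic reads set the share, and small differences were not detectable at this depth.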
